A study of Mus musculus with 36 samples.

Results

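*Nanos2* and 5 genes of NODAL signalling were followed in germ cells and gonads of mouse fetuses exposed to intrauterine hyperglycemia (IUHG). The 6 members were taken by gene symbol, namely *Nanos2*, *Nodal*, *Lefty1*, *Lefty2*, *Acvr2b* and *Acvr1b*, out of 56893 gene symbols in the tables of primordial germ cells (PGCs) and 55492 in those of gonads. All 6 were found in both. RNA-seq covered 36 libraries in 12 groups of 3, labelled as biological replicates. The PGC groups were control and IUHG at E12.5 (E for embryonic day), where the labels leave the sex undetermined, and control and IUHG for females (F) and males (M) of 2 later ages (E13.5F, E13.5M, E16.5F and E16.5M), 30 libraries in all. The other 6 libraries were control and IUHG gonads of E13.5 females. In IUHG groups the dams were given streptozotocin (STZ), a toxin of pancreatic beta cells, on day 3.5 at a dose of 120 mg/kg, and those with blood glucose above 14 mM on day 6.5 were used. The labels give all groups the genotype WT. Per the study's methods, PGCs were sorted by flow cytometry for EGFP from an *Oct4-EGFP* transgene, each PGC library pooled many fetuses, and gonads came from ICR mice, so that gonads and PGCs differ in strain as well as in cell content. IUHG here is the outcome of STZ in dams selected for high glucose, and STZ and glucose cannot be told apart in these groups.

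NANOS2 is an RNA-binding protein of male fetal germ cells. It works with DND1 and the CCR4-NOT deadenylase to hold down RNAs of meiosis, and fetal male germ cells without it enter the female program. NODAL is a ligand of the TGF-beta family. It signals through type II receptors such as ACVR2B and type I receptors such as ACVR1B, with a CRIPTO co-receptor (*Tdgf1*), to SMAD2, SMAD3 and the DNA-binding partner FOXH1. LEFTY1 and LEFTY2 are secreted antagonists of NODAL whose genes are themselves switched on by the pathway, so that *Lefty1* and *Lefty2* are commonly read as its targets. In the fetal testis the pathway is active in germ cells for a short time after sex determination.

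In the PGC tables (Mm39 in the methods, all on the plus strand), *Nanos2* (ENSMUSG00000051965) lies on chromosome 7 from 18721325 to 18722887 and *Nodal* (ENSMUSG00000037171) on chromosome 10 from 61253751 to 61261117. *Acvr2b* (ENSMUSG00000061393) lies on chromosome 9 from 119231184 to 119264061, and *Acvr1b* (ENSMUSG00000000532) on chromosome 15 from 101071948 to 101111565. *Lefty2* (ENSMUSG00000066652, 180720673 to 180726668) and *Lefty1* (ENSMUSG00000038793, 180762587 to 180765965) are neighbours on chromosome 1, with 35919 bases between them. Their coding sequences, each of 1107 bases in the mm9 annotation, are 91.9% identical. Of all windows of 100 bases in the longest *Lefty2* transcript, 3.08% also occur exactly in *Lefty1*, and 0 of 2324 windows of 150 bases do. The methods kept uniquely mapped reads for the PGCs, so reads from the few identical stretches could be missing from either gene, and levels of the pair are uncertain to that extent.

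Promoter windows of RefSeq (GRCm38.p6, 250 bases before to 50 after a start) were held for *Nanos2*, *Nodal*, *Acvr2b* and *Acvr1b*, 4 of the 6 members. They were searched on both strands for CAGAC, the SMAD box, and for AATNNACA, a core of the FOXH1 motif. CAGAC occurs in 49.6% and AATNNACA in 12.2% of 32851 windows of this length. The *Nanos2* window held 1 match to AATNNACA, from 18987343 to 18987350, and none to CAGAC. The *Nodal* and *Acvr1b* windows held neither, and the *Acvr2b* window held 1 CAGAC on the minus strand. A match is a description of letters and no site of binding. The stretches upstream of the first annotated start are shown for the gene that moved most under IUHG and for the ligand, with the match in capitals.
Nanos2, chr7:18987274-18987399, plus strand: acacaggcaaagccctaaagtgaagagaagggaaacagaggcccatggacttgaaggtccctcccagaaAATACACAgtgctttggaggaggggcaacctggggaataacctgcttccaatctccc
Nodal, chr10:61417722-61417971, plus strand: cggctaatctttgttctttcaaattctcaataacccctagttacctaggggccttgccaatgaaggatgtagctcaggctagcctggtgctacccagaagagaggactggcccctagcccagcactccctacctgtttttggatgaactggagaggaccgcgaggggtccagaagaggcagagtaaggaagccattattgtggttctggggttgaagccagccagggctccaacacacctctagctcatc

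Depth, estimated from coverage over FPKM, was 3.25 to 8.32 gigabases of aligned sequence in PGC libraries and 3.89 to 4.95 in gonads. Values are TPM (transcript levels scaled for length and library total), so that the counting error of a gene is unknown. The 7 pan-germ markers (among them *Ddx4* and *Dazl*) were detected in every PGC group, except *Prdm1*, listed at 0 in all 3 libraries of IUHG E16.5F. The 4 Y-linked markers summed to between 116 and 183 TPM in E13.5M and to at most 0.0187 TPM in E13.5F libraries, as the sex labels have it. They summed to 194 to 212 TPM in control and 130 to 154 in IUHG libraries at E12.5, so that these pools contained male cells and the sum did not overlap between conditions. One female gonad library, control 1, carried 51.3 TPM of Y-linked transcripts, against 0 in the other 5. It also held 367 TPM of 5 Sertoli markers, against 19.5 to 21.3 in the others.

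In control PGCs the ligand, its antagonists and *Nanos2* marked the male side at E13.5, whereas the receptors were found in both sexes. *Nanos2* was listed at 0.85, 0.162 and 0.851 TPM in the 3 control libraries at E12.5 and reached 28.2, 31.9 and 31.3 TPM in E13.5M. Female PGCs held 0.163, 0 and 0.0753 TPM at E13.5. Male values lay far above both other groups with no overlap. The log2 difference on log2(TPM + 1) was 4.31 between E13.5M and E12.5 (SE 0.196, adjusted p = 1.3e-07, limma) and 4.87 between E13.5M and E13.5F (SE 0.158, adjusted p = 5.3e-08).

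*Nodal*, the ligand, was at 30.7, 24.8 and 25.4 TPM in control PGCs at E12.5 and at 31.5, 30.7 and 29.8 in E13.5M. In E13.5F it was at 0.699, 2.05 and 0.914 TPM. The E12.5 and E13.5M ranges overlapped (log2 difference 0.18, adjusted p = 0.14, limma), while female values lay below both. *Nodal* was lower by 3.70 on the log2 scale in E13.5F than in the E12.5 pools of undetermined sex (adjusted p = 1.5e-06, limma).

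The 2 antagonists parted between the E12.5 pools and E13.5M. *Lefty1* went from 157, 158 and 159 TPM at E12.5 to 284, 307 and 316 in E13.5M. *Lefty2* went the other way, from 338, 332 and 367 TPM to 163, 180 and 179. Neither pair of groups overlapped. The log2 differences were 0.93 and -0.99 (adjusted p = 5.7e-07 and 6.8e-07, limma), both just short of the fold of 2 required for a call. *Lefty2* passed it on leaving out any 1 of 4 control libraries (E12.5 control 1 or 2, E13.5M control 2 or 3), where the log2 difference reached -1.02 at most, and *Lefty1* passed it on FPKM. In females both antagonists were almost gone at E13.5, with *Lefty1* at 1.33, 2.64 and 1.34 TPM and *Lefty2* at 0.376, 0.315 and 0.486. *Lefty1* thereby fell by 5.87 and *Lefty2* by 7.96 on the log2 scale from E12.5 (adjusted p = 1.9e-08 and 6.1e-10, limma). TPM allows a ratio between the genes of a library. *Lefty2* over *Lefty1* was 2.19 ± 0.114 in control E12.5 and 0.575 ± 0.0103 in control E13.5M libraries (SD, n = 3 each).

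A call required an adjusted p under 0.01 and a fold over 2 in PGCs. Between control sexes at E13.5, 4 of the 6 members passed, all higher in males, against 29.8% of all genes tested called in either direction. *Nodal* differed by 3.88, *Lefty1* by 6.81 and *Lefty2* by 6.97 on the log2 scale (adjusted p = 9.7e-07, 1.3e-08 and 4e-09). *Acvr2b*, at 31.4, 30.9 and 32.9 TPM in males and 20.8, 23.4 and 25.8 in females, differed by 0.43 (adjusted p = 0.0076, short of the fold). *Acvr1b* was low in both, at 0.995 to 1.38 and 1.24 to 1.67 TPM. From E12.5 to E13.5M 1 member was called (*Nanos2*), where 16.2% of genes were in either direction. From E12.5 to E13.5F 3 members were called, all lower. There 25.5% of genes were called in either direction, with 1060 of 15368 lower. These comparisons share control libraries and are not independent of each other. Those with the E12.5 pools, of undetermined sex, cannot tell age and sex apart.

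By E16.5 *Nanos2*, the ligand and both antagonists had fallen in males, and the receptors were not called. All of *Nanos2*, *Nodal*, *Lefty1* and *Lefty2* were called lower in control E16.5M than in E13.5M, 4 of 6 members. Of all genes 51.0% were called in either direction, with 2591 of 20409 lower and a median log2 difference of 0.62. *Nodal* was at 3.44, 1.81 and 2.52 TPM, *Lefty1* at 1.56, 3.17 and 1.81, and *Lefty2* at 1.81, 2.36 and 1.87. *Nanos2* held 4.33, 7.09 and 4.65 TPM, below every E13.5M control library. The differences were -2.33 for *Nanos2*, -3.17 for *Nodal*, -6.61 for *Lefty1* and -5.86 for *Lefty2* on the log2 scale (adjusted p from 4.1e-09 to 2.4e-06, limma). *Acvr2b* stayed at 23.3, 30.1 and 31.1 TPM, in a range that overlapped that of E13.5M. *Acvr1b* was at 1.17 ± 0.193 TPM in E13.5M and 1.88 ± 0.308 in E16.5M (SD, n = 3 each), with no overlap and no call (adjusted p = 0.039, limma). Other genes of the pathway lists moved both ways, with 18 called higher and 11 lower of 61 tested, 47.5% against 51.0% of all genes.

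In control E16.5F *Nodal* was listed at 0 in all 3 libraries, *Nanos2* and *Lefty2* in 2 of 3 (0.0608 and 0.252 TPM in the other), and *Lefty1* at 0, 0 and 0.771 TPM. From E13.5F to E16.5F 0 members were called with limma, where 28.2% of genes were. An unadjusted p under 0.05 was found for 2 members and for 10780 of 17969 genes tested. For *Lefty1* the difference was -1.16 (adjusted p = 0.022), and it was called without E16.5F control 3 (adjusted p = 0.0096). Between control sexes at E16.5 the same 4 members as at E13.5 were called, higher in males. Of all genes 50.9% were called in either direction, with 6180 of 22037 higher in males. On FPKM and under quantile normalization 2 of them were called, without *Lefty1* and *Lefty2*. The differences were 2.61 for *Nanos2*, 1.36 for *Lefty1* and 1.48 for *Lefty2* (adjusted p = 3.3e-05, 0.0054 and 0.00042), and *Nodal* had an adjusted p of 0.00024 with the female group listed at 0. The *Lefty1* call was lost on leaving out any of 5 single libraries (E16.5F control 1 or 2, or any E16.5M control), with adjusted p from 0.012 to 0.021.

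**Figure D1:**
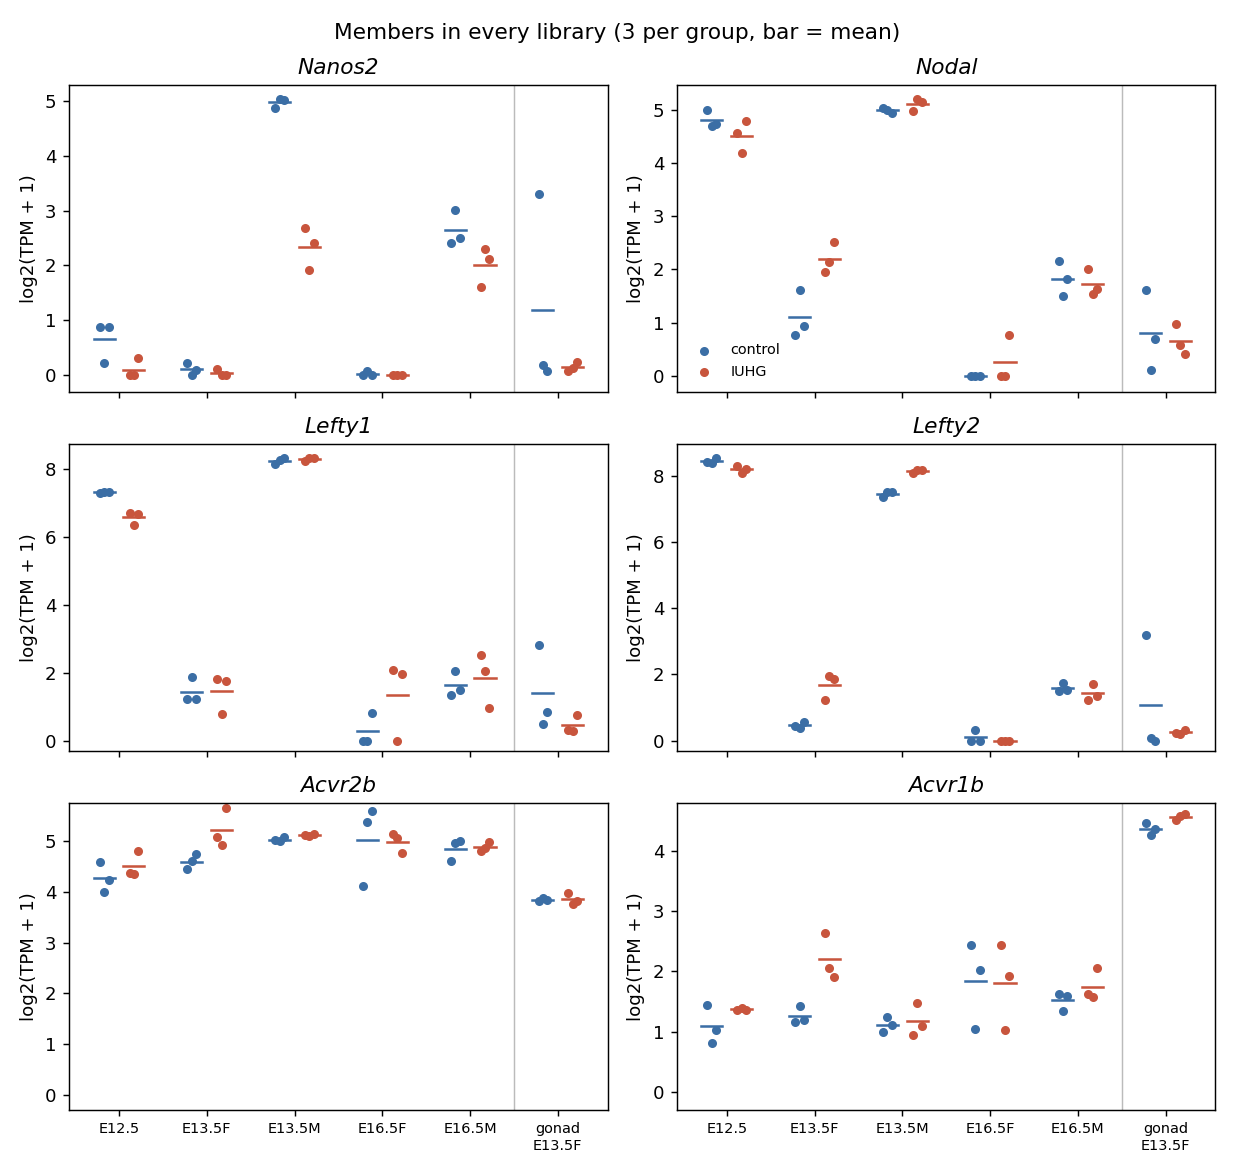
Level of each member, as log2(TPM + 1), in every library of PGCs (left of the grey line) and female gonads (right), with control in blue, IUHG in red and the mean as a bar. *Nanos2* stands near 5 only in control E13.5M PGCs, and *Nodal*, *Lefty1* and *Lefty2* are high at E12.5 and in E13.5M in both conditions.

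In male PGCs at E13.5 *Nanos2* fell under IUHG, and the ligand, its antagonists and its receptors were not called. *Nanos2* was at 28.2, 31.9 and 31.3 TPM in control and 5.44, 2.78 and 4.33 TPM in IUHG libraries. All IUHG libraries lay below all control libraries, with a gap between 5.44 and 28.2 TPM. The means of 30.5 ± 1.95 and 4.19 ± 1.34 TPM (SD, n = 3 each) stand 7.28-fold apart, and *Nanos2* fell by 2.63 on the log2 scale (SE 0.170, adjusted p = 5.9e-06, limma). Base coverage of the gene was 105 to 115 in control and 11.0 to 16.7 in IUHG libraries. It was the 1 member called, where 3.93% of 14458 genes were, and the sixth largest fall on this scale among the 274 genes called lower.

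*Nodal* itself was at 31.5, 30.7 and 29.8 TPM in control and 30.3, 35.8 and 34.5 in IUHG E13.5M libraries. *Lefty1* was at 284, 307 and 316 against 302, 319 and 319 TPM. Both overlapped between the conditions, with log2 differences of 0.12 (SE 0.077) and 0.05 (SE 0.051), adjusted p = 0.25 and 0.49 in limma. The receptor *Acvr2b* was at 30.9 to 32.9 and 33.5 to 34.2 TPM, ranges that did not overlap but lay close (log2 difference 0.09, adjusted p = 0.31). *Acvr1b* ranged from 0.995 to 1.38 and from 0.922 to 1.77 TPM.

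*Lefty2* was the member that stood out beside *Nanos2* in E13.5M. It was at 163, 180 and 179 TPM in control and 271, 286 and 289 TPM in IUHG libraries, with no overlap. The log2 difference was 0.69 (SE 0.0529, adjusted p = 1.6e-05, limma), or 1.62-fold, which does not pass the fold required and is not a call. The IUHG values overlapped the E12.5 IUHG range of 271 to 314 TPM and lay below the E12.5 control range of 332 to 367. The ratio of *Lefty2* to *Lefty1* was 0.565 to 0.586 in control and 0.896 to 0.907 in IUHG libraries of E13.5M. At E12.5 its median was 2.15 and its highest value 2.32 in control, and it was 2.90 to 3.36 in IUHG. The ratio was thus higher in IUHG at both ages, by 0.65 and 0.50 on the log2 scale. The exact permutation test, two-sided, gave p = 0.1 for each, the smallest that 3 against 3 libraries allow. The ratio was chosen after its values were seen, so that these p-values add no support. Where both genes were low, the ratio was 0.119 to 0.362 in control and 0.533 to 4.01 in IUHG E13.5F libraries. In E16.5M it overlapped, at 0.744 to 1.16 in control and 0.283 to 1.61 in IUHG.

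**Figure D2:**
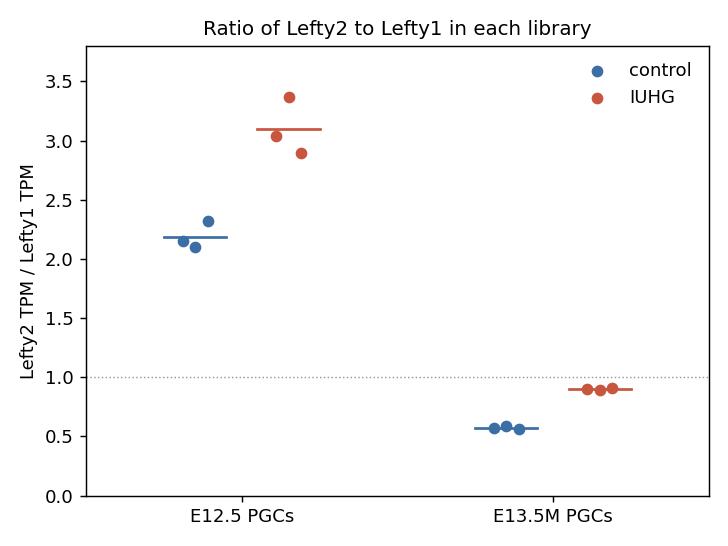
Ratio of *Lefty2* TPM to *Lefty1* TPM in each library of E12.5 and E13.5M PGCs, control in blue and IUHG in red, with the mean as a bar and a dotted line at equal levels. IUHG libraries lie above control libraries at both ages, at 2.90 to 3.36 against at most 2.32 and at 0.896 to 0.907 against 0.565 to 0.586.

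Sums of markers named for other cell types shifted with the condition in these sorted male libraries. The 6 interstitial markers summed to 27.1 to 42.5 TPM in control and 1.37 to 4.73 TPM in IUHG E13.5M libraries, all 6 detected in both. *Insl3*, a hormone of fetal Leydig cells, was at 19.0 ± 6.35 and 0.348 ± 0.604 TPM and *Cyp11a1*, a steroidogenic enzyme, at 7.66 ± 1.78 and 0.228 ± 0.214 TPM (SD, n = 3 each). The 5 Sertoli markers summed to 105 to 115 and 115 to 163 TPM, and within them *Amh* was at 3.92 ± 0.0975 and 2.19 ± 0.241 TPM. The 5 pregranulosa markers summed to 14.75 to 18.97 and 8.64 to 10.2 TPM and the 4 endothelial markers to 46.75 to 52.3 and 73.2 to 83.5 TPM, neither with overlap. Blood markers summed to 5.26 to 69.3 and 3.51 to 3.71 TPM, and Y-linked genes to 151 to 183 and 116 to 120 TPM. The pan-germ sum was 8801 to 9474 in control and 7797 to 8094 TPM in IUHG libraries. Which cells made these transcripts was not tested. In IUHG E13.5F PGCs the Sertoli sum was 34.2 to 53.7 TPM with *Sox9*, *Amh* and *Cst9* at 0 in all libraries. The part of these shifts in the *Nanos2* result was not tested. In bulk libraries fewer cells that express a gene and less RNA per cell cannot be told apart.

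In female PGCs at E13.5 0 members were called between IUHG and control with limma, where 0.515% of all genes were called. An unadjusted p under 0.05 was found for 4 members and for 3871 of 16519 genes tested. *Nodal* was at 0.699, 2.05 and 0.914 TPM in control and 2.86, 3.40 and 4.74 in IUHG libraries. *Lefty2* was at 0.376, 0.315 and 0.486 against 1.34, 2.85 and 2.67 TPM. IUHG libraries were the higher in both, with no overlap. Differences were 1.10 (SE 0.361) and 1.21 (SE 0.352) on the log2 scale, and adjusted p was 0.12 and 0.095 in limma. The receptors *Acvr1b*, at 1.24 to 1.67 and 2.76 to 5.21 TPM, and *Acvr2b*, at 20.8 to 25.8 and 29.2 to 49.6 TPM, also did not overlap (log2 differences 0.94 and 0.63, adjusted p = 0.14 and 0.18). *Lefty1* overlapped, at 1.33 to 2.64 and 0.710 to 2.52 TPM. *Nanos2* was at most 0.163 TPM in these 6 libraries and was not tested. In this comparison the median log2 difference of all genes was 0.14, above 0. In one fit over all PGC groups *Nodal* and *Lefty2* were both called, with adjusted p of 0.0012 and 5.6e-06.

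At E12.5 0 members were called with limma, where 0.247% of genes were called. An unadjusted p under 0.05 was found for 2 members and for 2162 of 13756 genes tested. *Lefty1* was at 157, 158 and 159 TPM in control and 103, 80.6 and 101 TPM in IUHG libraries, and *Lefty2* at 338, 332 and 367 against 314, 271 and 292 TPM. Neither overlapped, and IUHG libraries were the lower in both. The log2 differences were -0.74 (SE 0.111, adjusted p = 0.014) and -0.24 (SE 0.0945, adjusted p = 0.26). *Nodal* overlapped at 24.8 to 30.7 and 17.1 to 26.6 TPM (log2 difference -0.29, adjusted p = 0.44). The Y-linked sum was also lower in these IUHG libraries, as were those of pan-germ (7698 to 8353 in control and 6835 to 7639 TPM in IUHG), Sertoli (52.8 to 58.2 and 43.0 to 50.5), pregranulosa (4.05 to 5.77 and 1.23 to 3.94) and interstitial markers (3.46 to 5.16 and 0.774 to 2.15, with *Hsd3b1* at 0 in IUHG). The sum of 4 endothelial markers was higher, at 122 to 132 and 146.5 to 164.5 TPM. The part of these sums in the *Lefty1* and *Lefty2* values was not tested. *Nanos2* was at 0.85, 0.162 and 0.851 against 0, 0 and 0.242 TPM, too low to test.

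At E16.5 0 members were called in either sex with limma, where 0.742% of genes were called in females and 0.201% in males. In E16.5M *Nanos2* was at 4.33, 7.09 and 4.65 TPM in control and 2.04, 3.91 and 3.36 TPM in IUHG libraries. Control libraries lay above IUHG libraries, with the nearest at 4.33 and 3.91 TPM. The log2 difference was -0.63 (SE 0.237, adjusted p = 0.14). *Nanos2* was the 1 member with an unadjusted p under 0.05, against 5005 of 20921 genes tested. Interstitial markers there summed to 41.4 to 166 and 14.2 to 33.8 TPM, and Sertoli markers to 103 to 132 and 36.3 to 66.4 TPM. In E16.5F *Lefty1* was at 0, 0 and 0.771 against 3.19, 0 and 2.89 TPM, which overlapped (adjusted p = 0.32). No member had an unadjusted p under 0.05 in E16.5F, against 4272 of 18734 genes tested.

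In female gonads 0 members were called at an adjusted p under 0.05 and a fold of at least 2, where 0.622% of 18005 genes were called with limma. *Nanos2* was at 8.88, 0.145 and 0.0523 TPM in control and 0.0562, 0.0909 and 0.183 in IUHG libraries. *Lefty2* was at 8.12, 0.0642 and 0 against 0.180, 0.149 and 0.263 TPM, and *Lefty1* at 6.01, 0.415 and 0.807 against 0.249, 0.215 and 0.699. Control 1 alone was high in all 3 genes, and it is the library with Y-linked and Sertoli transcripts. With it the differences were -1.04, -0.83 and -0.93 on the log2 scale (adjusted p = 0.49, 0.58 and 0.38). Without it all 3 genes were below the level tested. *Acvr1b* was higher in gonads than in any PGC group, in tables that were made separately. It was at 21.1, 18.3 and 19.7 against 21.9, 22.9 and 23.4 TPM, with a log2 difference of 0.20 (adjusted p = 0.22). *Acvr2b* was at 13.2 to 13.7 and 12.6 to 14.9 TPM, *Nodal* at 0.077 to 2.07 and 0.320 to 0.952. Of the members, *Acvr1b* alone had an unadjusted p under 0.05, against 3574 of 18005 genes tested.

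**Figure D3:**
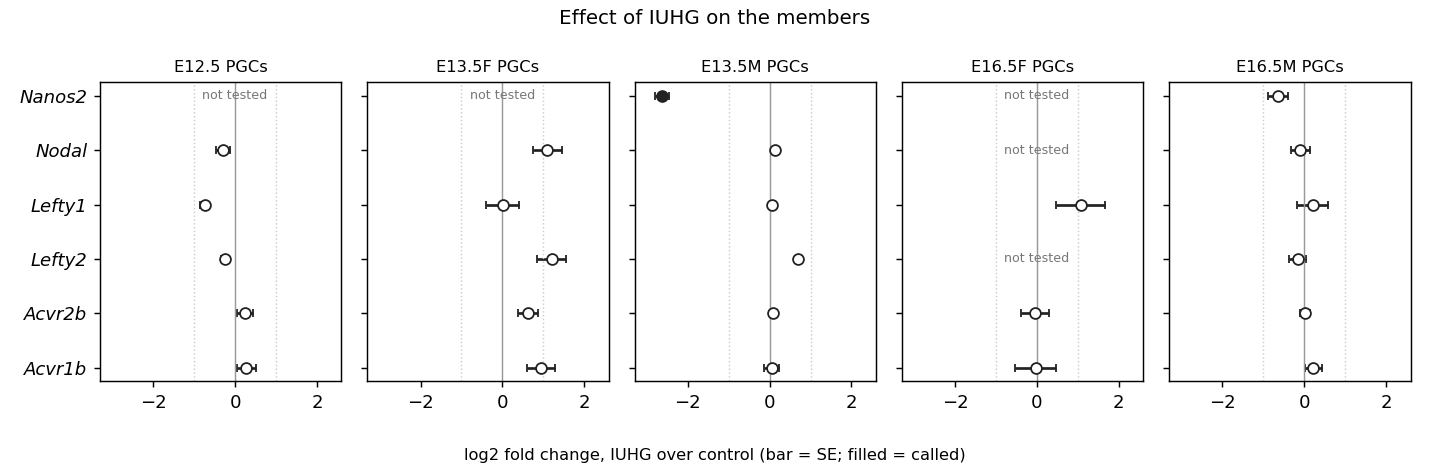
Log2 fold change of each member between IUHG and control PGCs, with its standard error, in 5 panels by stage and sex, filled where called and open where not. *Nanos2* in E13.5M, at -2.63, is the 1 filled point, and the open points of E13.5F reach 1.21 for *Lefty2*.

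Differences between effects were tested by interaction terms. For sex by IUHG at E13.5, 1 member was called at an adjusted p under 0.01, where 3.22% of genes were, namely *Nanos2* (difference of effects -2.57, SE 0.311, adjusted p = 0.00037, limma). Female *Nanos2* was at most 0.163 TPM and too low to test, so that this value restates the male difference of -2.63 and says nothing of an effect in females. With a pseudocount of 0.1 the call was lost (-2.45, adjusted p = 0.032). *Nodal* gave -0.98 (adjusted p = 0.071) and *Lefty2* -0.51 (adjusted p = 0.20), neither of them called. For E16.5M against E13.5M, 2 members were called where 8.33% of genes were. The effect on *Nanos2* was 2.00 higher (that is, less negative) at E16.5 (adjusted p = 0.00096), and that on *Lefty2* 0.85 lower (adjusted p = 0.0038). *Lefty2* was at 1.34 to 2.36 TPM in E16.5M, where log2(TPM + 1) understates changes. Its value thus mostly restates the E13.5M difference of 0.69, which was not called. The *Lefty2* call was lost without any 1 of 4 libraries (E13.5M control 1, E13.5M IUHG 2 or 3, E16.5M control 2), with adjusted p from 0.01 to 0.012.

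Under IUHG at E13.5 the 4 members called between control sexes were called again, higher in males, where 10.9% of genes were called in either direction. The differences were 2.30 for *Nanos2*, 2.91 for *Nodal*, 6.84 for *Lefty1* and 6.46 for *Lefty2* (adjusted p = 0.0023, 0.00046, 4.2e-05 and 2e-05, limma). The *Nanos2* call was lost on leaving out any 1 of the 3 male IUHG libraries (adjusted p = 0.016 to 0.022), and that of *Nodal* without male IUHG 2 (adjusted p = 0.01). *Acvr1b* differed by -1.03, not called (adjusted p = 0.031), and was called without female IUHG 3 (adjusted p = 0.007). *Acvr2b*, higher in males without overlap in controls, overlapped under IUHG, at 33.5 to 34.2 TPM in males and 29.2 to 49.6 in females. Its log2 difference was -0.103 there, not called (adjusted p = 0.7, limma). The sign depended on scaling, at 0.462 under median-of-ratios, 0.345 under quantile normalization and 0.147 on FPKM, none called. The median log2 difference of all genes, male over female, was -0.51 under IUHG and -0.28 in controls. In controls the same difference of *Nanos2* was 4.87, with the female libraries near 0 in both conditions.

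Ordered by level over the 10 PGC groups, *Nanos2* came first in control E13.5M, whose range did not reach the next group. Control E16.5M (5.36 ± 1.51 TPM, SD, n = 3), IUHG E13.5M (4.19 ± 1.34) and IUHG E16.5M (3.10 ± 0.962) followed, each overlapping its neighbour, then a gap to E12.5 and the female groups, at most 0.851 TPM in each library. For *Nodal* the first 4 groups, E13.5M and E12.5 in both conditions, each overlapped the next, and the other groups were at most 4.74 TPM in each library. *Lefty1* was first in E13.5M and *Lefty2* in control E12.5. *Acvr2b* lay between 15.0 and 49.6 TPM in every PGC library, and 8 of its 9 pairs of neighbouring groups overlapped. *Acvr1b* lay between 0.747 and 5.21 TPM and all 9 pairs overlapped.

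Of 65 other genes of the pathway and of NANOS2, grouped in 9 lists chosen with earlier results known, 55 could be tested in E13.5M. There 3 rose and 2 fell, 9.09% against 3.93% of all genes. The median log2 difference of the lists was -0.03, against -0.02 over all genes. *Foxh1*, the DNA-binding partner of the SMADs, rose from 40.3 ± 1.45 to 83.1 ± 4.08 TPM (SD, n = 3 each; log2 fold change 1.03, adjusted p = 3.3e-06, limma). It lies so near the fold required that its call was lost without control 3 or without IUHG 3. *Stra8*, the meiotic inducer that NANOS2 is known to repress, rose from 11.2 ± 2.19 to 149 ± 22.6 TPM (3.63, adjusted p = 2.5e-07). In its list the other 3 genes were not called, with *Sycp3* at 121 and 107 TPM and *Taf7l* at 14.5 and 11.9 TPM in control and IUHG.

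The receptor gene *Fgfr3* rose from 0.322 ± 0.0592 to 2.04 ± 0.345 TPM (1.20, adjusted p = 0.00062). *Nanos3*, the paralog that guards early PGCs, fell from 263 ± 8.21 to 129 ± 2.75 TPM (-1.02, adjusted p = 7.4e-07, lost without control 3). *Piwil4*, of the piRNA pathway of fetal male germ cells, fell from 7.53 ± 1.02 to 2.82 ± 1.01 TPM (-1.19, adjusted p = 0.0013, lost without IUHG 2). *Dnd1*, the partner of NANOS2, was at 562 ± 47.8 and 342 ± 6.81 TPM and *Tdrd9* at 1.92 ± 0.237 and 0.669 ± 0.160 TPM, both with adjusted p under 0.01 and short of the fold.

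The other lists gave 0 calls in E13.5M. Among ligands and co-receptors, *Tdgf1* was at 15.6 and 24.4 TPM and *Gdf3* at 57.0 and 73.8 TPM in control and IUHG (adjusted p = 0.00034 and 0.0025, short of the fold). Among embryo targets, *Eomes* was at 2.11 and 1.31 TPM (adjusted p = 0.086). Among inhibitors, *Pmepa1* was at 8.34 and 6.35 and *Dand5* at 7.34 and 4.51 TPM (adjusted p = 0.035 and 0.037). In the activin and TGF-beta branch, *Fstl3* was at 5.23 and 2.83 and the receptor *Tgfbr1* at 2.57 and 4.44 TPM (adjusted p = 0.0066 and 0.0069). *Acvr2a*, the other type II receptor, was at 2.52 and 3.71 TPM (adjusted p = 0.039), and *Fgfr1* at 13.4 and 20.3 TPM (adjusted p = 0.0013, short of the fold).

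In E13.5F 0 rose and 3 fell of 53 genes tested, 5.66% against 0.515% of all genes, with a list median of 0.37 against 0.14. The 3 that fell are all in the list of RNAs repressed by NANOS2. *Nanos2* itself was at most 0.163 TPM in control and 0.0883 TPM in IUHG libraries of E13.5F, and a part of NANOS2 in these falls was not tested. *Stra8* fell from 1832 ± 109 to 428 ± 88.9 TPM (log2 fold change -2.12, adjusted p = 0.0011, limma), *Sycp3*, of the synaptonemal complex, from 1445 ± 172 to 336 ± 10.1 TPM (-2.10, adjusted p = 0.00045), and *Taf7l*, a germ cell TFIID subunit, from 387 ± 38.1 to 50.7 ± 2.38 TPM (-2.91, adjusted p = 0.00026). *Stra8* lost its call without any 1 control library (adjusted p = 0.016 to 0.017), and *Sycp3* without control 2 (adjusted p = 0.012). *Foxh1* was at 62.9 ± 2.31 and 128 ± 8.40 TPM with no overlap, not called (adjusted p = 0.017).

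The genes of lowest p in the other lists of E13.5F were not called, and all but *Piwil4* and *Mixl1* had higher means in IUHG. *Gdf3* was at 25.6 and 52.0 and *Furin*, a convertase, at 8.25 and 22.8 TPM in control and IUHG (adjusted p = 0.031 and 0.076). *Ppm1a* was at 4.18 and 12.47, *Smad7* at 6.32 and 16.3 TPM (adjusted p = 0.056 and 0.076). *Dnd1* was at 227 and 357 and *Pum2* at 14.6 and 42.1 TPM (adjusted p = 0.062 and 0.068), *Smad4* at 44.7 and 68.4 (adjusted p = 0.17). *Dnmt3a* was at 10.2 and 19.5, *Piwil4* at 6.09 and 3.05, *Fgfr2* at 6.22 and 18.3 and *Fgfr1* at 25.9 and 49.8 TPM (adjusted p = 0.089, 0.17, 0.092 and 0.17). *Tgfb1* was at 0.295 and 1.23, *Fstl3* at 1.74 and 2.80 TPM (adjusted p = 0.24 and 0.42). Of the embryo targets *Mixl1* alone was tested, at 7.26 and 6.72 TPM (adjusted p = 0.93).

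In the other comparisons of IUHG and control the lists held 0 calls of 54 genes tested at E12.5, against 0.247% of all genes, and 0 of 59 in E16.5M, against 0.201%. They held 1 of 48 in E16.5F, or 2.08% against 0.742% of all genes (*Tdrd9*, from 87.5 to 35.1 TPM, log2 fold change -1.29, adjusted p = 0.0039), and 1 of 57 in gonads, or 1.75% against 0.622%. The *Tdrd9* call was lost without any 1 of 5 libraries (each control, IUHG 1 or IUHG 3), with adjusted p from 0.01 to 0.044. The gene called in gonads was *Foxh1*, from 8.77 ± 2.46 to 24.8 ± 2.69 TPM (1.42, adjusted p = 0.009), and it was lost without IUHG 2 (adjusted p = 0.052). In the same gonads the pan-germ sum was 437 to 537 TPM in control and 630 to 739 in IUHG (*Tfap2c* called higher), and the blood sum 8876 to 11190 and 5490 to 6631 TPM (*Hbb-bt* and *Hbb-bs* called lower). The part of these sums in the *Foxh1* values was not tested. For sex by IUHG at E13.5, 5 of 58 genes tested were called, 8.62% against 3.22% of all genes, 3 with a higher effect in males (*Stra8* 5.75, *Taf7l* 2.64 and *Sycp3* 1.92) and 2 with a lower (*Dnd1* -1.36 and *Dnmt3a* -1.42). The *Dnmt3a* call (adjusted p = 0.0082) was lost without any 1 of 10 of the 12 libraries (adjusted p = 0.012 to 0.03), that is all but E13.5F IUHG 2 and 3. For E16.5M against E13.5M, 13 of 61 were called, 21.3% against 8.33% of all genes, 9 with a higher and 4 with a lower effect at E16.5, among them *Nanos3* (0.88), *Stra8* (-3.20) and *Foxh1* (-1.37).

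**Figure D4:**
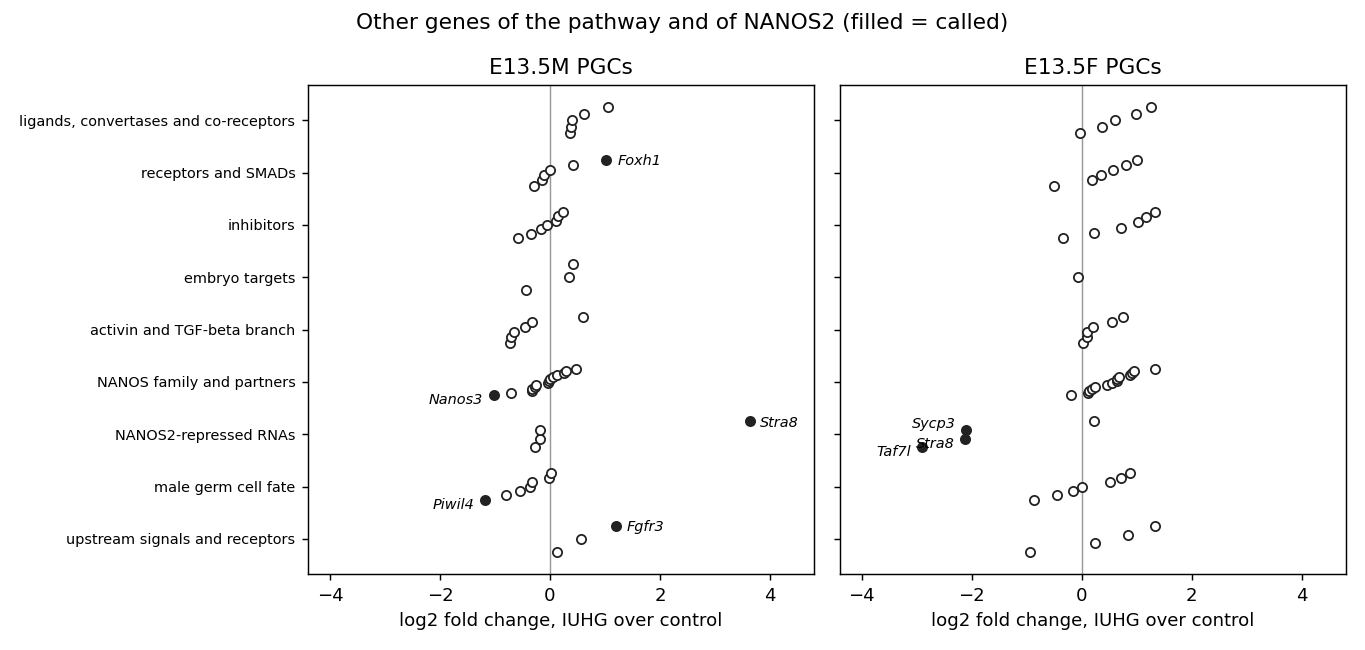
Log2 fold change between IUHG and control, one point per tested gene of 9 lists, in E13.5M (left) and E13.5F PGCs (right), filled and named where called. *Stra8* is at 3.63 on the left and at -2.12 on the right, and most other points are open.

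The genes most like each member over the 30 PGC libraries were taken as the 3 with the highest Pearson r of log2(TPM + 1) among 25142 genes. These are descriptions, since the libraries share 10 groups, stage and sex. Those for *Lefty2* included *Ruvbl2* (r = 0.978), and those for *Lefty1* included *Nphs1* (0.980) and *Gm57186* (0.979). Those for *Nodal* included *Srm* (0.975) and *Otx2* (0.975), a transcription factor at 20.6 ± 0.847 TPM in control E13.5M and 0.133 ± 0.116 in control E13.5F (SD, n = 3 each).

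For *Nanos2* they were *Amh* (0.945), *Prss29* (0.936) and *Fbxo41* (0.931). *Amh* is a product of Sertoli cells and *Prss29* was at 15.2 ± 1.36 TPM in control and 5.19 ± 0.103 in IUHG E13.5M libraries (SD, n = 3 each). For the receptors the values were lower, 0.787 to 0.816 for *Acvr2b* and 0.749 to 0.779 for *Acvr1b*, and all but *Mafg* were predicted genes without a name. Among the members, *Nodal*, *Lefty1* and *Lefty2* had r of 0.954 to 0.967 with each other, and *Nanos2* had 0.376 to 0.488 with them.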

How the data were processed

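As deposited, the files held StringTie gene tables. TPM values were made by the authors by scaling for transcript length and to one total per library. FPKM values were scaled by the authors for length and mapped fragments. The coverage signal, the mean depth over transcript bases, was left unscaled by the authors. Methods name STAR and Mm39 for PGCs and HISAT2 and mm9 for gonads, whereas 47.9% of gonad genes shared a start or end with GRCm38. The authors' DESeq2 test on counts was not run, since no counts were used here.

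TPM was taken as log2(TPM + 1), which understates changes of low genes. A gene entered a test where its mean was 1 TPM or more in either group. Tests used limma (version 3.58.1, R version 4.3.3; linear fit of the compared groups alone, moderated with a mean trend, two-sided, no covariate) and Benjamini-Hochberg adjustment over all genes tested. Whether the study's P under 0.01 was adjusted is not stated. The members, lists and the genes named in lists (those called and the 2 of lowest p) were chosen with earlier results of these data known. The code was tested on simulated data for the 15 comparisons. There 49% to 97% of genes changed by 2 on the log2 scale were called, with 0 to 2 false calls. A gene not called may thus still have changed. Python 3.11.15 with numpy 2.4.6 and scipy 1.17.1 was used for other steps. Some genes that the naming rules would give are not reported here.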

Additional observations from a re-analysis of the deposited data

Results flagged for a closer look

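Effects of IUHG that differed between groups by an interaction test were those of *Nanos2* between E16.5M and E13.5M (2.00 on the log2 scale, limma) and of *Lefty2* between the same male ages (-0.85). In E16.5M *Lefty2* was at most 2.36 TPM, so that its value mostly restates the uncalled E13.5M difference of 0.69. The test also passed for *Nanos2* between the sexes at E13.5 (-2.57). Female levels were too low to test there, so that it restates the male difference and says nothing of an effect in females.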

How the results depend on the processing

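The *Nanos2* call in E13.5M held under FPKM, a pseudocount of 0.1, no filter on low values, median-of-ratios and quantile normalization, one fit over all PGC groups, the replicate block and every left-out library, with log2 differences from -2.88 to -2.39. Signs turned for 2 of the 69 differences counted below. *Lefty1* in E13.5M was -0.00416 under quantile normalization (adjusted p = 0.95), and *Lefty2* for sex by IUHG was 0.0143 on FPKM (adjusted p = 0.97). The number of members called changed as follows. For IUHG in E13.5F (0) it was 2 in one fit and 1 at an unadjusted p under 0.01, where 6.07% of genes passed. Between sexes it was 2 on FPKM and 2 under quantile normalization for E16.5 controls (4), and 2 to 5 over left-out libraries for E13.5 IUHG (4). From E12.5 to E13.5M (1) it was 2 on FPKM and under quantile normalization, and 1 to 2 over left-out libraries. From E13.5F to E16.5F (0) it was 1 with a pseudocount of 0.1, in one fit and at unadjusted p, 2 under quantile normalization, and 0 to 1 over left-out libraries. At unadjusted p 31.8% of genes passed in that comparison. For sex by IUHG (1) it was 0 with a pseudocount of 0.1, where *Nanos2* gave -2.45 (adjusted p = 0.032), and 2 at unadjusted p. For male age by IUHG (2) it was 1 with a pseudocount of 0.1, with no filter and in one fit, and 1 to 2 over left-out libraries. Causes were not tested. Whether same-numbered libraries shared a day or batch is not known here. Their deviations from the group means correlated at -0.0922 to 0.135, which cannot settle it. With the replicate block the count of members called was as without it in all 15 comparisons, 1 in E13.5M, and *Dnmt3a* for sex by IUHG lost its call (adjusted p = 0.016). The 69 fold changes recomputed here were chosen for print after values were seen. Of 966 recomputations of them, 63 lost and 15 gained a call. Of 30 other fold changes of members, none of them called, 17 turned sign under at least 1 alternative, among them *Acvr2b* between the sexes under IUHG, given above. Some of these are drawn as open points in the plot of IUHG effects, among them *Lefty1* in E13.5F. Depth limits are unknown, since no counts were used.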

Other observations

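*Otx2*, close to *Nodal* in its pattern, was at 20.6 ± 0.847 TPM in control and 16.7 ± 0.380 in IUHG E13.5M PGCs (SD, n = 3 each). In the same libraries *Stra8* over *Nanos2* was 0.309 to 0.408 in control and 30.9 to 49.5 in IUHG.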
